A study of Arabidopsis thaliana with 2 samples.

Results

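Transposable element (TE) genes of the regions around the 5 Arabidopsis thaliana centromeres were compared between pollen of the ecotypes Ler-0 and Col-0. They were chosen by annotation and position alone, as loci of the type transposable element gene whose start lay between 11.5 and 17.7 Mb on chromosome 1, 1.1 and 7.2 Mb on chromosome 2, 10.3 and 17.3 Mb on chromosome 3, 1.5 and 6.3 Mb on chromosome 4, or 9 and 16 Mb on chromosome 5 (TAIR10). These windows held 3340 of the 3895 TE genes (85.8%) among 33322 nuclear loci, and the other 555 TE genes are called arm TE genes here. The windows hold 523, 732, 774, 612 and 699 of them on chromosomes 1 to 5. RNA was sequenced from 1 pollen library of Ler-0 and 1 of Col-0, the ecotype of the reference genome, both without a transgene or mutation named in the labels. All plants grew in long days at 22 °C, pollen was shaken from open flowers in buffer and filtered, and total RNA freed of rRNA was used for ScriptSeq-v2 libraries. The study's title concerns small RNAs that a microRNA triggers from transposons and the response to genome dosage. There is no replicate of either library, so no test between the ecotypes was possible, and an effect of the ecotype cannot be told apart from one of the plants, the collection or the library preparation.

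Transposable elements are mobile DNA, and the pericentromeric heterochromatin of Arabidopsis is where most of their copies lie. LTR retrotransposons move through an RNA copy and carry gag and pol coding regions, non-LTR retrotransposons (LINE-like) encode a reverse transcriptase without the terminal repeats, and En/Spm (CACTA), Mutator, hAT and PIF elements move as DNA through a transposase. DNA methylation, histone methylation and small RNAs silence them in most tissues. In pollen the vegetative cell, which grows the pollen tube, loses part of this silencing and transcribes some elements, while the sperm cells it carries keep it. The microRNA miR845 is known to match the primer binding site of LTR retrotransposons, where a tRNA starts their reverse transcription, and to set off small RNAs from them in pollen.

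The sequences that the results turn on are of 2 kinds, the miR845 match and element families with many reads. Sequences and exon structures come from the RefSeq assembly TAIR10.1 and its annotation, in which 3333 of the 3340 loci have the same coordinates as in the deposited tables. The mature miR845a and miR845b are shown as DNA, 5′ to 3′, because their shared bases set the search, and capitals mark the seed (bases 2 to 8).
miR845a, chr4:12217457-12217477 (- strand): cGGCTCTGataccaattgatg
miR845b, chr4:12214086-12214107 (- strand): tCGCTCTGataccaaattgatg
They share the 13 bases GCTCTGATACCAA, whose reverse complement TTGGTATCAGAGC was searched on both strands of each locus and of the 1000 bases on either side. Of the expressed loci that hold it, the sites of 6 are shown with their neighbouring bases, on the strand that reads TTGGTATCAGAGC, which stands in capitals.
AT2G06480, chr2:2569410-2569449 (- strand): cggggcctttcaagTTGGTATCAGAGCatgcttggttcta
AT4G06670, chr4:3881962-3882001 (+ strand): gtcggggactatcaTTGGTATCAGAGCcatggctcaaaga
AT5G29075, chr5:11143996-11144035 (- strand): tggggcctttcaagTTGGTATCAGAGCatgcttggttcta
AT5G28120, chr5:10111479-10111518 (+ strand): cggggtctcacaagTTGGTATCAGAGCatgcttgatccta
AT1G33813, chr1:12274680-12274719 (- strand): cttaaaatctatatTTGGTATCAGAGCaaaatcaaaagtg
AT2G05390, chr2:1970538-1970577 (+ strand): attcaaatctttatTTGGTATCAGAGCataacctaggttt
The last of these is the only one of the 6 whose locus had more reads in Col-0. The bases before and after the match are alike at AT2G06480, AT5G29075 and AT5G28120 and differ from them at AT1G33813 and AT2G05390.

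For 3 families that lead the results, 100 bases of the loci are shown on the strand of the gene, because they show how little separates loci whose reads are reported apart. Capitals mark bases that differ from the first sequence of each family. The first family is of Gag-Pol-related retrotransposons, all but unread in Col-0.
AT5G26618, chr5:9274080-9274179 (- strand): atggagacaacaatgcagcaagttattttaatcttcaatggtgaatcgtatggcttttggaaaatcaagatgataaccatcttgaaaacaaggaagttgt
AT1G46120, chr1:17204279-17204378 (+ strand): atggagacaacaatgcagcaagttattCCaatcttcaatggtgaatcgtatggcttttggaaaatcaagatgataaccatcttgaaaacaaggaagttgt
AT2G29165, chr2:12541365-12541464 (- strand): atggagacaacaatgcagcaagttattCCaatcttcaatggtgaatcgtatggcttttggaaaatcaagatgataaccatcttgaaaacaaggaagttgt
The second is of En/Spm-like transposons, also all but unread in Col-0.
AT3G32080, chr3:13078212-13078311 (- strand): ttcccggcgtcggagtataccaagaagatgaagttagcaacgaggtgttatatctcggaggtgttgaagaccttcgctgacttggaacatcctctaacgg
AT2G04330, chr2:1511768-1511867 (- strand): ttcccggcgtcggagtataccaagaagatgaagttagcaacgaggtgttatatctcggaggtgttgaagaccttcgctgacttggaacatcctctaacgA
AT5G35794, chr5:13967024-13967123 (- strand): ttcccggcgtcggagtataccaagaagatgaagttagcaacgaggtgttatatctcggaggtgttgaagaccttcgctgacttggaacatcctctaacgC
AT3G29710, chr3:11547739-11547838 (- strand): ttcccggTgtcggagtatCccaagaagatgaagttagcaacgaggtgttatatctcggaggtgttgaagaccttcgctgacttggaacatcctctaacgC
AT2G23480, chr2:10003271-10003370 (+ strand): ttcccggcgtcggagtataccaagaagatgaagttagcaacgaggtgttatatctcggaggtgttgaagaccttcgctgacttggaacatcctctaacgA
The third is the Gag-Pol-related family of AT2G15650, read in both ecotypes.
AT2G15650, chr2:6820826-6820925 (+ strand): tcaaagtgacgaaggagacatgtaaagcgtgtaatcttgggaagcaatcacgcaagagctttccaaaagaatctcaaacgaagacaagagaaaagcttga
AT1G50810, chr1:18830346-18830445 (+ strand): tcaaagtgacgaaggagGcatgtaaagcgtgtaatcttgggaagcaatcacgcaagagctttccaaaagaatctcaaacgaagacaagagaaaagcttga
AT1G35115, chr1:12842884-12842983 (+ strand): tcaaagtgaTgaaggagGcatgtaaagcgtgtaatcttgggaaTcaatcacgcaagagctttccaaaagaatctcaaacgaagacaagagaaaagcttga
AT2G29165, AT2G23480 and AT1G50810 are arm loci and are shown for their likeness to the others. Over the leading local alignment of each pair, AT5G26618 is 99.5% identical to AT1G46120 and 97.7% to AT2G29165. AT1G46120 is the longer gene, and 1689 of its bases are in the alignment. AT3G32080 is 95.3% identical to AT2G04330, 96.8% to AT5G35794, 96.4% to AT3G29710 and 96.3% to AT2G23480. The alignments with AT2G04330 and AT2G23480 end at base 1430 of AT3G32080. AT2G15650 is 97.5% identical to AT1G50810, and 93.6% to AT1G35115 over bases 1448 to 4073 of AT2G15650 alone.

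The windows fit their name by gene content. They span 31.1 Mb, 26.1% of the genome, and hold 107 TE genes per Mb against 6.3 per Mb outside them, while protein-coding genes stand at 106 per Mb inside and 272 per Mb outside. The median length of a pericentromeric TE gene is 2043 bases (122 to 15194), all 3340 are annotated as pseudogenes, and 2871 have 1 exon. At the edges, the nearest TE gene inside each of the 10 window limits stood between 0.0146 and 2.4 FPKM in Ler-0 (median 0.0597) and between 0 and 0.319 FPKM in Col-0 (median 0.0302). The nearest outside stood between 0.0149 and 0.547 FPKM in Ler-0 (median 0.0783) and between 0 and 0.0951 FPKM in Col-0 (median 0.0265).

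FPKM are reads scaled by the length of the gene and the size of the library, and the reads behind them could be recovered from the deposited values. The Ler-0 library held 88952509 reads and the Col-0 library 76488187, so that 1 FPKM in a gene of 1 kb rests on 89.0 reads in Ler-0 and 76.5 in Col-0. Markers fit pollen in both. The 4 vegetative cell markers were expressed at 128 to 3073 FPKM in Ler-0 and 131 to 6057 in Col-0 (sums 6416 and 12270), and the 4 sperm markers at 2.18 to 138 FPKM in Ler-0 and 1.18 to 58.0 in Col-0 (sums 150 and 73.4). The 4 leaf genes, which encode photosynthesis proteins, all passed 1 FPKM in a library and reached 33.1 FPKM in Ler-0 and 28.9 in Col-0 (sums 40.6 and 38.8), 2 of 5 floral organ genes and 0 of 3 tapetum genes passed 1 FPKM, and none of these 20 markers was at 0. In a bulk sample more RNA of a cell type can be more cells or more RNA per cell, and these cannot be told apart. Markers of 1 cell type did not all differ alike. Of the vegetative markers, AT5G19360 had 461 FPKM in Ler-0 and 131 in Col-0, whereas the 3 others were lower in Ler-0. Of the sperm markers, AT5G49150 had 5.84 FPKM in Ler-0 and 11.6 in Col-0, whereas the 3 others were higher in Ler-0. The part of these differences in the results below was not tested.

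Pericentromeric TE genes took a larger share of the RNA in Ler-0 pollen than in Col-0 pollen. They held 445819 reads, 0.501% of the library (95% interval 0.5 to 0.503), in Ler-0, against 151711 reads, 0.198% (0.197 to 0.199), in Col-0, a ratio of 2.53 (2.51 to 2.54). The intervals are exact binomial ones for shares and ratios and reflect the counting of reads alone. With 1 library per ecotype they hold no spread between plants or libraries. PCR copies of a molecule, if kept as separate reads, would make them too narrow. Protein-coding genes of the same windows held 11.3% of reads in Ler-0 against 11.5% in Col-0, and pseudogenes there 0.0639% and 0.0770%, so neither was higher in Ler-0. The 10 loci with the highest mean of the 2 libraries held 38.6% of these reads in Ler-0 against 33.9% in Col-0. The other loci held 0.308% of the Ler-0 library against 0.131% of the Col-0 library, a ratio of 2.35 (2.33 to 2.37).

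Arm TE genes did not show the same excess of summed reads, but this rested on few loci. They held 0.239% of reads in Ler-0 and 0.282% in Col-0, a ratio of 0.848, and the 10 arm loci with the highest mean held 67.1% of these in Ler-0 and 86.7% in Col-0. Leaving the same 10 out of both libraries, a comparison added after the values were seen, left 0.0788% in Ler-0 and 0.0377% in Col-0, a ratio of 2.09 (2.06 to 2.12). Outside the leading loci the reads were thus higher in Ler-0 in both places, and the difference between the ratios of 2.35 and 2.09 was not tested.

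**Figure D1:**
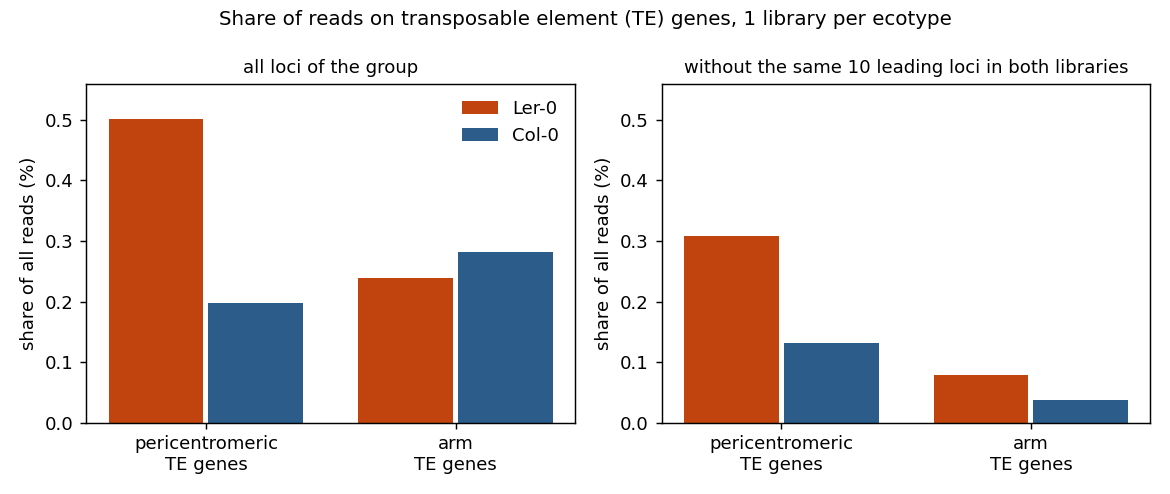
Share of all reads (%, vertical axis) on pericentromeric and arm TE genes in the Ler-0 (orange) and Col-0 (blue) library, for all loci (left) and without the 10 loci of each kind with the highest mean of both libraries, the same in both (right). Pericentromeric TE genes stand at 0.501% in Ler-0 against 0.198% in Col-0, and arm TE genes at 0.239% and 0.282%; on the right Ler-0 is above Col-0 for both.

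Most pericentromeric TE genes had reads, but few had many. At least 3 reads were found at 2788 loci in Ler-0 (83.5%, against 90.7% of all loci) and at 2127 in Col-0 (63.7%, against 83.7% of all loci). No read was found at 176 loci in Ler-0 and 434 in Col-0, of which 95 were without reads in both, and the median locus had 12 reads in Ler-0 and 4 in Col-0. At 1 FPKM or more there were 227 loci in Ler-0 and 98 in Col-0, with 62 in both, and at 10 FPKM or more 31 in Ler-0 and 15 in Col-0. A locus at 1 FPKM or more in either library is called expressed. That held for 263 pericentromeric TE genes (7.87%), for 84 arm TE genes (15.1%) and for 28.7% of all loci.

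The ratio of the 263 expressed loci was taken as log2 of (FPKM + 1) in Ler-0 over that in Col-0, less the median of 0.06 over the 6656 loci at 1 FPKM or more in both libraries, and a locus was counted as 4-fold apart at 2 or more either way. The pseudocount of 1 understates the change of low loci. A locus that passes 1 FPKM in 1 library alone must be higher there, and 165 of the 263 passed in Ler-0 alone, 36 in Col-0 alone and 62 in both. Among the 62 the ratio was above 0 at 49 (79.0%; 50% of all 6656 such loci, since their median is the centre), with a median of 0.59, and 1 was 4-fold higher (2.24% of all such loci) and 0 lower (1.46%). The counts over all 263 follow as a description. The median was 0.89, against 0.06 over all 9562 expressed loci, 0.55 for arm TE genes and 0.01 for protein-coding genes of the windows. The ratio was above 0 at 214 of 263 loci (81.4%; 53.1% of all expressed loci). The Ler-0 level was 4-fold higher or more at 46 loci (17.5%; 3.44% of all expressed loci) and 4-fold lower or more at 13 (4.94%; 2.22% of all expressed loci). Both shares were near those of the arm TE genes, where 15 of 84 (17.9%) were 4-fold higher and 4 (4.76%) lower, and the higher share was above that of protein-coding genes in the windows (24 of 842, 2.85%). Of those protein-coding genes 44 (5.23%) were 4-fold lower. At 2-fold, 116 loci were higher (44.1%; 11.3% of all expressed loci) and 33 lower (12.5%; 10.3%). Of the 46 higher loci, 11 had 3 reads or fewer in Col-0, while the fewest reads that any of the 46 had in Ler-0 was 364. That locus, the LTR retrotransposon AT4G04155, had no read in Col-0 and was at least 104-fold higher in Ler-0 when Col-0 is set to 3 reads.

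The 4-fold loci were more often higher than lower at each level of expression, taken as the higher FPKM of the 2 libraries. Of the 38 loci that reached 10 FPKM, 20 were 4-fold higher in Ler-0 and 7 lower, with a median of 2.69. Of the 42 between 5 and 10 FPKM, 20 were higher and 3 lower, and of the 183 between 1 and 5 FPKM, 6 were higher and 3 lower. Over all expressed loci of any level 3.44% were higher and 2.22% lower, and the counts were not compared with all loci of the same level. They are a description, since 45 of the 46 higher loci passed 1 FPKM in Ler-0 alone and the 13 lower ones in Col-0 alone. Among the 1320 loci with at least 20 reads in either library, the 95% interval of the FPKM ratio lay wholly above 1 at 962 (72.9%; 44.6% of all 22203 such loci) and wholly below 1 at 125 (9.47%; 26.5%).

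The 3077 loci under 1 FPKM in both libraries were also read more in Ler-0. Pooled, they stood at 0.113 FPKM in Ler-0 and 0.0559 in Col-0, a ratio of 2.02, and 2466 of them (80.1%; 65.4% of all loci under 1 FPKM) had the higher FPKM in Ler-0. The pooled ratio of such low loci was 1.82 for pseudogenes of the windows, 1.48 for arm TE genes, 1.26 for protein-coding genes of the windows and 1.15 for protein-coding genes elsewhere. Low loci of every kind examined were thus above 1, and what part of the TE value this makes up was not tested.

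**Figure D2:**
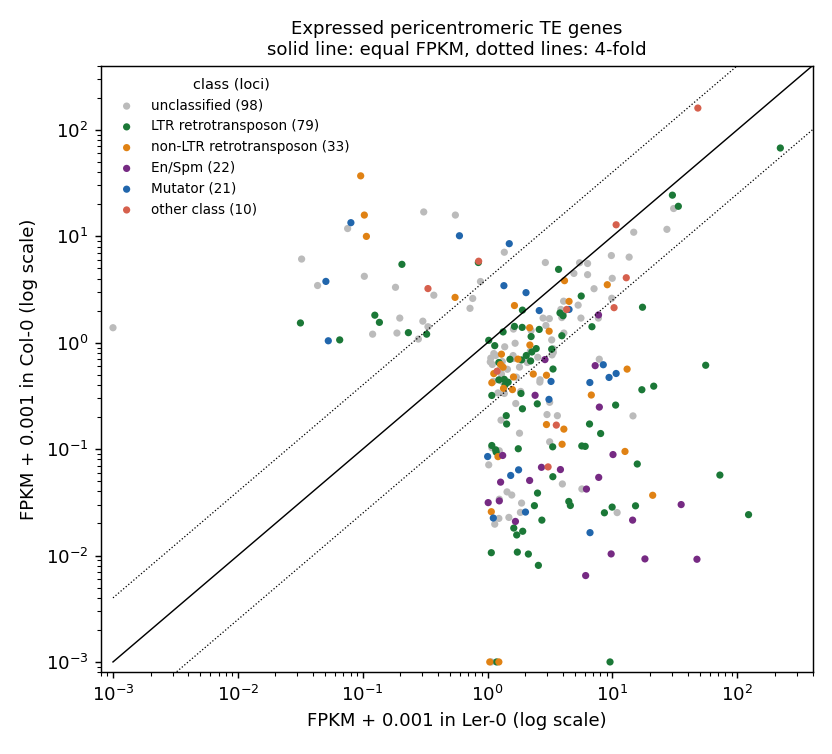
FPKM + 0.001 in Ler-0 (horizontal) and Col-0 (vertical), both on log scales, of the 263 expressed pericentromeric TE genes, each a point coloured by element class. The solid line marks equal FPKM and the dotted lines a plain 4-fold ratio, which more loci pass than the 46 and 13 counted on the FPKM + 1 scale; most points lie below the solid line, towards Ler-0, and a smaller cloud lies above it at low FPKM in Ler-0.

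LTR retrotransposons carried the largest part of the RNA. Classes were assigned by annotation notes (17 loci), similarity to annotated element proteins (1200) or similarity to an already classified locus (839), and 1284 loci stayed unclassified. The 1122 LTR loci held 55.7% of pericentromeric TE reads in Ler-0 and 39.0% in Col-0, or 0.279% of the library in Ler-0 and 0.0774% in Col-0, a ratio of 3.60. Of all expressed loci 3.44% were 4-fold higher in Ler-0 and 2.22% lower, which stands beside the counts of this and each class below. Of the 79 expressed LTR loci 18 were 4-fold higher in Ler-0 and 1 lower, with a median of 0.98. Among the 44 of these without a near-identical copy (95% identity or more across 50% or more of its length), 9 were higher and 1 lower. The 9 still include AT1G46120, since 1689 of its 3737 bases, fewer than 50%, align with AT5G26618, at 99.5% identity.

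AT2G15650 had the most RNA of all pericentromeric TE genes in Ler-0. This single-exon Gag-Pol-related locus, at chr2:6819379-6823451 on the + strand, stood at 221 FPKM (80230 reads) in Ler-0 and 67.4 FPKM (21002 reads) in Col-0, a ratio of 3.28 (3.24 to 3.34). Its relatives, whose sequences are shown above, differed less between the libraries. AT1G50810, on the arm, stood at 222 FPKM in Ler-0 against 203 in Col-0, and AT1G35115 at 30.2 FPKM in Ler-0 and 24.3 in Col-0. Summed over the 3 loci, the family held 1914 RPM (reads scaled to the size of the library) in Ler-0 and 1186 in Col-0, a ratio of 1.61 (1.60 to 1.63), a value that can still depend on how reads matching several loci were counted.

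AT5G26618 and AT1G46120 were abundant in Ler-0 and near 0 in Col-0. AT5G26618 (chr5:9272491-9274179, - strand, 1 exon) stood at 123 FPKM (18529 reads) in Ler-0 and 0.0232 FPKM (3 reads) in Col-0, a ratio of 5311 (1817 to 25755). AT1G46120 (chr1:17203685-17207422, + strand, 1 exon) stood at 72.5 FPKM (24104 reads) in Ler-0 and 0.0560 FPKM (16 reads) in Col-0, a ratio of 1295 (798 to 2267). With their arm relative AT2G29165, at 52.9 FPKM in Ler-0 against 0.0158 in Col-0, the 3 near-identical loci held 50402 reads in Ler-0 and 21 in Col-0. All 3 were thus high in Ler-0 alone, and how many of them give the RNA cannot be read from these values, since the rule for reads that match several loci is not given in the sources used here.

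A cluster on chromosome 2 held a further pair of LTR loci. AT2G06480 (chr2:2570237-2570643, + strand), which has a miR845 match in its flank, stood at 55.8 FPKM (2016 reads) in Ler-0 and 0.612 FPKM (19 reads) in Col-0, a ratio of 91.2 (58.3 to 152). AT2G06460, 5928 bases away, stood at 21.4 FPKM in Ler-0 and 0.389 in Col-0, a ratio of 54.9 (38.6 to 81.1). Both are short pieces of longer elements, with 5 and 4 near-identical loci. Each is among the near-identical loci of the other, so the 2 may share reads and their ratios are not independent. AT1G38423, with an aspartyl protease gag-polyprotein product, differed less, at 33.7 FPKM in Ler-0 and 19.1 in Col-0, a ratio of 1.77 (1.71 to 1.83).

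En/Spm loci showed the highest ratio of summed reads of the classes, and none was 4-fold lower. The 173 loci held 46702 reads in Ler-0 and 2488 in Col-0, a ratio of shares of 16.1 (15.5 to 16.8), which was 13.8 without AT3G32080, the locus with the most mean FPKM. All 22 expressed loci had a ratio above 0, 12 were at least 4-fold higher, and the median was 2.21. Without near-identical copies, 6 of 9 were 4-fold higher. Of the 12 higher loci, all but AT2G10490, classed by nucleotide similarity, were classed by likeness to proteins annotated as En/Spm-like transposon, putative (DUF1985). The expressed loci like a PttA/En/Spm transposase, AT3G33166, AT3G46487 and AT3G30767, were below 4-fold, with log2 ratios of 1.14, 1.31 and 1.32. AT3G32140 and AT4G09370, of the DUF1985 kind, were also below it, at 1.73 and 1.03. The arm En/Spm loci were few and leaned the same way, with 3 of 5 expressed loci 4-fold higher and a ratio of summed reads of 6.73.

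AT3G32080, AT2G04330 and AT4G06551 were the En/Spm loci with the highest levels in Ler-0. AT3G32080 (chr3:13076748-13078338, - strand, 5 exons) stood at 47.5 FPKM (6716 reads) in Ler-0 and 0.00822 FPKM (1 read) in Col-0, a ratio of 5775 (1036 to 228131). AT2G04330 (chr2:1510450-1513142, - strand, 6 exons) stood at 35.5 FPKM (8504 reads) in Ler-0 and 0.0291 FPKM (6 reads) in Col-0, a ratio of 1219 (560 to 3322). Together with AT5G35794, AT3G29710 and the arm locus AT2G23480, the 5 loci shown above held 25143 reads in Ler-0 and 18 in Col-0. AT4G06551 (chr4:3443530-3445107, + strand), for which no near-identical copy was found, stood at 18.2 FPKM (2559 reads) in Ler-0 and 0.00829 FPKM (1 read) in Col-0, a ratio of 2200 (395 to 86946). The wide intervals come from the few reads in Col-0.

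Non-LTR retrotransposons and Mutator elements held loci apart in both directions. The 400 non-LTR loci had a ratio of summed reads of 1.58 (1.56 to 1.61), with 6 of 33 expressed loci 4-fold higher in Ler-0 and 3 lower. AT2G06780, a reverse transcriptase locus at chr2:2709951-2712872 without a near-identical copy, had 21.0 FPKM (5459 reads) in Ler-0 against 0.0358 FPKM (8 reads) in Col-0. The 271 Mutator loci had a ratio of 1.66 (1.63 to 1.70), with 5 of 21 expressed loci higher and 3 lower. AT1G36090, a MuDR family transposase locus with 8 near-identical copies, stood at 10.7 FPKM in Ler-0 and 0.512 in Col-0, a ratio of 21.0 (16.8 to 26.6). AT1G36105, another Mutator locus 9342 bases from it, stood at 0.594 FPKM in Ler-0 and 10.1 in Col-0, a ratio of 0.0588 (0.0477 to 0.0719).

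The PIF, hAT and Sadhu classes had few expressed loci, and none of these passed 4-fold on the FPKM + 1 scale, although ratios of FPKM alone were larger. PIF elements were the only class with fewer reads in Ler-0 (a ratio of 0.337), and this rested on AT5G28888 (chr5:10902105-10903015, - strand), at 48.3 FPKM (3913 reads) in Ler-0 and 160 FPKM (11171 reads) in Col-0. Without it the ratio of the class was 3.52. The other expressed PIF locus, AT4G04635, stood at 3.55 FPKM in Ler-0 and 0.167 in Col-0, a ratio of 21.3 (12.9 to 37.6). Of the hAT loci, AT1G42110 stood at 0.847 FPKM in Ler-0 against 5.82 in Col-0 (ratio 0.146, 0.122 to 0.172), and AT1G37057 at 4.30 in Ler-0 and 2.05 in Col-0, so the 2 differed in opposite directions. Of the Sadhu elements, a family of non-autonomous retroposons, 6 of 10 were expressed. SADHU2-1 stood at 10.7 FPKM in Ler-0 against 12.8 in Col-0, and SADHU3-2 at 12.9 in Ler-0 and 4.07 in Col-0, a ratio of 3.18 (2.78 to 3.64). SADHU5-2 and SADHU1-1 differed more and in opposite directions, with 3.05 FPKM in Ler-0 and 0.0670 in Col-0 (ratio 45.6, 17.5 to 169) at SADHU5-2, and 0.332 in Ler-0 and 3.22 in Col-0 (ratio 0.103, 0.0688 to 0.150) at SADHU1-1.

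Unclassified loci were 98 of the 263 expressed, with 5 at least 4-fold higher, 6 lower and a ratio of summed reads of 1.61 (1.59 to 1.63). Several of the highest were less than 4-fold apart. AT1G33300 stood at 30.9 FPKM in Ler-0 and 18.2 in Col-0 (ratio 1.69, 1.51 to 1.90), AT5G28710 at 27.3 in Ler-0 and 11.6 in Col-0 (ratio 2.36, 2.17 to 2.56), and AT4G07523, the locus with the highest mean FPKM of the 2 libraries in the chromosome 4 window, at 13.6 in Ler-0 and 6.36 in Col-0 (ratio 2.14, 1.81 to 2.53).

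**Figure D3:**
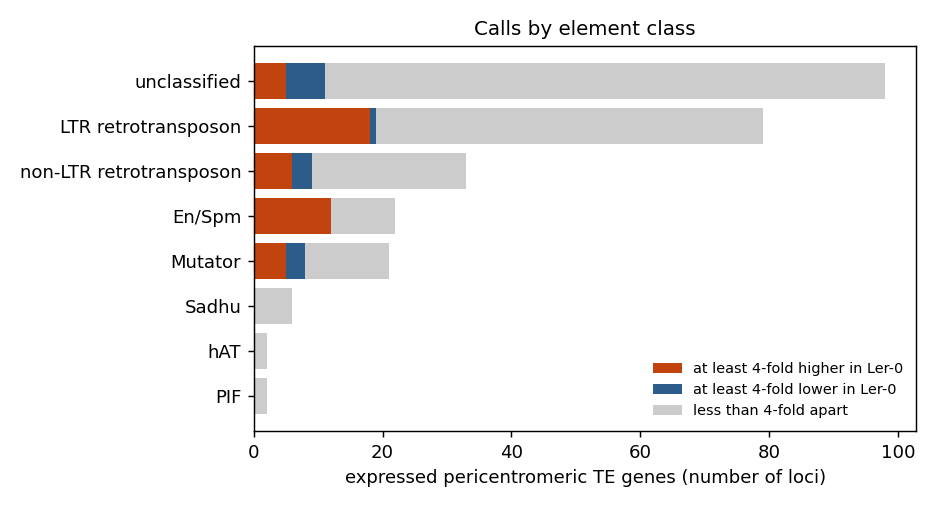
Number of expressed pericentromeric TE genes (horizontal axis) by element class, split into 4-fold or more higher (orange) or lower (blue) in Ler-0 and less than 4-fold apart (grey). En/Spm (12 higher, 0 lower) and LTR loci (18 higher, 1 lower) hold most of the higher loci, and unclassified loci hold 6 of the 13 lower ones.

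The loci that were lower in Ler-0 were mostly single loci with almost no reads there. AT3G28153, a Ta11-like non-LTR locus (chr3:10478206-10483699, - strand), stood at 0.102 FPKM (50 reads) in Ler-0 and 15.8 FPKM (6656 reads) in Col-0, a ratio of 0.00646 (0.00479 to 0.00853). AT2G11240, also Ta11-like, stood at 0.106 FPKM in Ler-0 and 9.96 in Col-0, a ratio of 0.0106 (0.00803 to 0.0138). The Mutator locus AT2G13970 (chr2:5862536-5864801, + strand) stood at 0.0794 FPKM (16 reads) in Ler-0 and 13.4 FPKM (2318 reads) in Col-0, a ratio of 0.00594 (0.00339 to 0.00966).

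The unclassified loci AT3G42450, AT1G34660 and AT5G35798 followed the same pattern, at 0.307, 0.0747 and 0.551 FPKM in Ler-0 and 16.9, 11.8 and 15.8 FPKM in Col-0. The lowest ratio of all, at AT3G32925, cannot be assigned to a TE gene. It stood at 0.0953 FPKM (14 reads) in Ler-0 and 36.9 FPKM (4658 reads) in Col-0, but its whole length lies in the protein-coding AT3G32920 on the same strand, at 0.106 FPKM in Ler-0 against 27.2 in Col-0, so the reads of the 2 cannot be told apart. Of the 13 lower loci 3 had a near-identical copy and this 1 overlapped another locus, against 21 and 0 of the 46 higher loci. TAIR10 is a Col-0 genome, so a locus that Ler-0 lacks, or has in another form, would also have few reads in Ler-0, and this was not tested.

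Loci apart lay near each other in a few places. Of 9 pairs of 4-fold loci within 10 kb, 6 had both higher in Ler-0, 1 had both lower (AT2G13970 and AT2G13975, 83 bases apart) and 2 were opposite. Of all 4-fold loci 78% were higher in Ler-0, and the pairs were not compared with what this split or the spacing of the loci would give. The opposite pairs were AT1G36090 with AT1G36105, and AT5G35794, at 14.5 FPKM in Ler-0 and 0.0205 in Col-0, with AT5G35798, 3895 bases away. AT4G06550 and AT4G06551, 4570 bases apart, were both higher. An expressed locus that is no TE gene lay within 1 kb of 3 of the 46 higher loci and 2 of the 13 lower loci, against 24 of all 263 expressed loci, and AT5G26618 has AT5G26667 at 127 FPKM in Ler-0 and 45.0 in Col-0 at a distance of 1768 bases. What such neighbours add to the reads of a TE gene was not tested.

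The Ler-0 excess was present in the windows of all 5 chromosomes, with unequal size. The ratio of summed reads was 2.65 on chromosome 1, 2.64 on chromosome 2, 1.39 on chromosome 3, 3.67 on chromosome 4 and 3.03 on chromosome 5. Without the locus of highest mean FPKM on each, these were 2.15, 2.16, 1.20, 3.70 and 5.33, so chromosome 5 rested most on a single locus, AT5G28888, which is higher in Col-0. The medians over expressed loci were 0.66, 0.71, 1.15, 1.13 and 1.25. The 4-fold higher loci numbered 6, 11, 7, 10 and 12 and the lower ones 2, 3, 4, 2 and 2.

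In bins of 1 Mb the ratio was above 1 in 32 of 35 and ranged between 0.110 and 31.3, with a median of 2.24. The highest bin, at 9 Mb on chromosome 5, had 219 RPM in Ler-0 against 6.99 in Col-0 and holds AT5G26618. The 3 bins below 1 were all on chromosome 3, at 10 Mb (0.110, with AT3G28153), 14 Mb (0.767, with AT3G42450) and 16 Mb (0.900). The 2355 loci closer to the middle of a window than to its edge had a ratio of 2.01, with 6.71% expressed, and the 985 loci closer to the edge had 3.20, with 10.7% expressed, while the medians over expressed loci were 0.88 and 0.97.

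**Figure D4:**
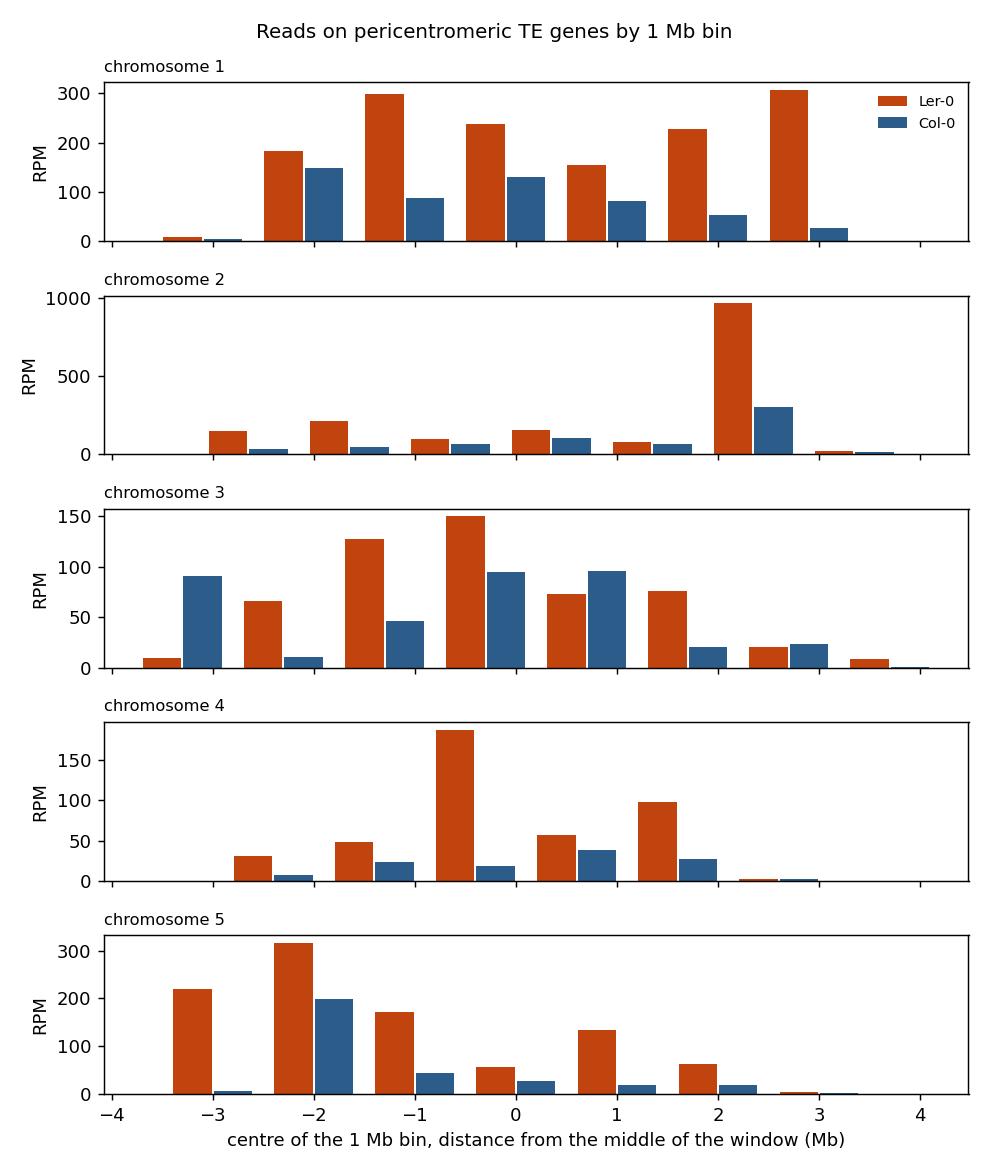
Reads on pericentromeric TE genes in RPM, scaled to the size of the library, in bins of 1 Mb (bars, Ler-0 orange, Col-0 blue) against the distance of the bin's centre from the middle of the window (Mb), by chromosome, with a vertical scale of its own for each. Ler-0 is above Col-0 in 32 of 35 bins, and the 3 others are all on chromosome 3.

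A few expressed loci with the miR845-matching bases were far higher in Ler-0, while the low loci with the bases were near other low TE genes. The 13 bases were found in or within 1000 bases of 110 pericentromeric TE genes (3.29%), 19 arm TE genes (3.42%), 0.0376% of protein-coding genes outside the windows and 0.504% of all loci. In all, 101 distinct sites out of 151 on the 5 chromosomes were involved. Of the 110 loci 75 were LTR retrotransposons, and in 79 the site lay upstream on the strand of the gene, at a median distance of 124 bases, the side on which a primer binding site lies. Of the 9 expressed loci, AT4G06670, AT1G33813 and AT2G05390 alone had it there. In AT2G06480 and AT4G08750 it lay upstream on the opposite strand, 802 and 447 bases away. In AT5G29075, AT5G28110, AT5G28120 and AT4G08111 it lay inside the gene. These letters are a description and not a proof of a site, and loci without them may hold other matches.

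The 110 loci held 18557 reads in Ler-0 and 1937 in Col-0, a ratio of shares of 8.24 (7.86 to 8.64), against 2.45 for pericentromeric TE genes without the bases. The 9 expressed loci carried this, with 15602 reads in Ler-0 and 638 in Col-0, a ratio of 21.0 (19.4 to 22.8), against 2.56 for the 254 expressed loci without the bases. The other 101 held 2955 reads in Ler-0 and 1299 in Col-0, a ratio of 1.96 (1.83 to 2.09), and low loci without the bases 2.02 (1.99 to 2.05). FPKM was higher in Ler-0 at 91 of the 110 (82.7%; 62.7% of all loci), a share near the 80.3% of all pericentromeric TE genes. Of the 9 that were expressed, 5 were at least 4-fold higher, none was 4-fold lower, and the median was 2.08. Of all expressed pericentromeric TE genes 17.5% were 4-fold higher, and of all expressed loci 3.44%, with 2.22% lower. The 5 include AT5G28110 and AT5G28120, which are near-identical and may share reads. The arm loci with the bases had a ratio of 26.2 (24.3 to 28.4), with 12797 of their 20464 reads in Ler-0 and 125 of 671 in Col-0 at AT2G01029. AT2G01029 is near-identical to AT2G06480, AT5G28110 and AT5G28120, which are among the 9, over 81.1% or more of their length. The ratios of 21.0 and 26.2 may thus share reads and are not independent. The 22 protein-coding genes of the windows with the bases had 1.75 (1.54 to 1.99) and the 9 outside 0.836 (0.804 to 0.869).

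AT2G06480, described above, was the highest of these loci in Ler-0. AT4G06670, an En/Spm-like locus (chr4:3881990-3888610, + strand) whose site ends 2 bases before its start, stood at 7.85 FPKM (4620 reads) in Ler-0 and 0.247 FPKM (125 reads) in Col-0, a ratio of 31.8 (26.6 to 38.3). AT5G29075, a GAG/POL/ENV polyprotein locus of 1 exon at chr5:11136149-11146651, stood at 5.68 FPKM in Ler-0 and 0.106 in Col-0, a ratio of 53.7 (43.3 to 67.3). The adjacent AT5G28110 and AT5G28120, near-identical to each other, stood at 4.08 and 3.95 FPKM in Ler-0 and 0.153 and 0.110 FPKM in Col-0. AT2G05390 was the exception, at 0.0644 FPKM (23 reads) in Ler-0 and 1.06 FPKM (326 reads) in Col-0.

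**Figure D5:**
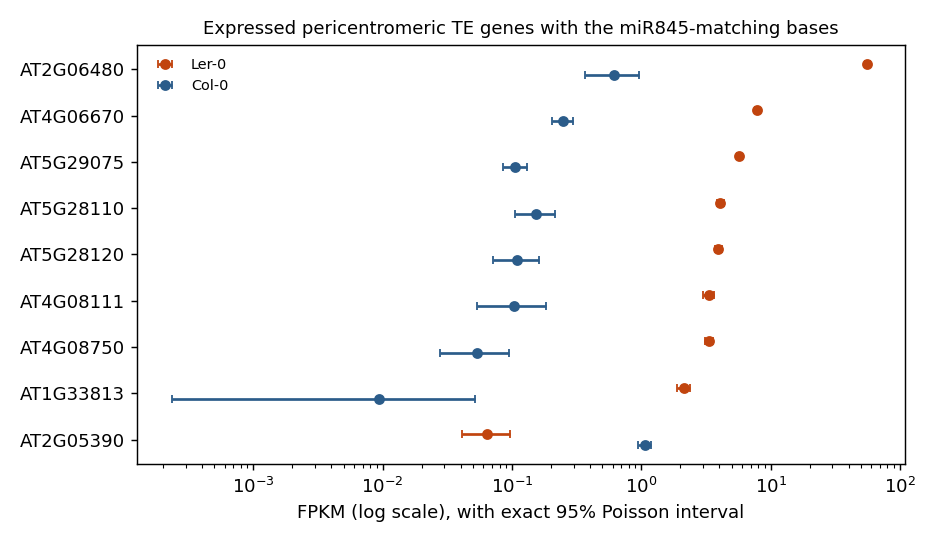
FPKM (log scale, horizontal axis) in Ler-0 (orange) and Col-0 (blue) of the 9 expressed pericentromeric TE genes with the miR845-matching bases, with exact 95% Poisson intervals as bars, which reflect counting alone. Ler-0 is above Col-0 at 8 of 9, by intervals that do not overlap, and AT2G05390 is the exception.

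Genes of the silencing machinery, a list of 15 on DNA methylation, RNA-directed DNA methylation and chromatin, are given beside these results. Of the 15, 5 were expressed and none was 4-fold higher. MET1, the maintenance methyltransferase of CG sites, was 4-fold lower in Ler-0 (2.22% of all expressed loci), at 1.24 FPKM in Ler-0 and 12.8 in Col-0. DDM1, the chromatin remodeller that keeps heterochromatic TEs methylated, stood at 16.9 FPKM in Ler-0 and 24.2 in Col-0 (ratio 0.698, 0.674 to 0.721), and MOM1, which silences without changing methylation, at 4.91 FPKM in Ler-0 and 5.81 in Col-0. NRPD1 and NRPE1, the largest subunits of RNA polymerases IV and V, stood at 1.06 and 2.16 FPKM in Ler-0 and 0.714 and 1.94 FPKM in Col-0. The median over the 5 was -0.27. The other genes of the list were below 1 FPKM in both libraries. All of these but AGO4 (ratio 0.688, 0.526 to 0.897) had the higher FPKM in Ler-0, with ratios between 1.23 (CMT3) and 3.36 (DRM2). The intervals of CMT2, CMT3 and AGO6 held 1. The list thus differed in both directions. The relation of these genes to the TE values was not tested.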

How the data were processed

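The deposited values are FPKM per locus, which the authors computed per the file headers, for 1 Ler-0 and 1 Col-0 pollen library. Subread and TAIR10 are named in the submitters' processing notes, without a version for Subread. How multiply matching reads and strand were handled is not given in the sources used here. Multiplying FPKM by gene length (end minus start) and dividing by the smallest increment of the library gave whole numbers, within 0.01, for 100% of loci, and these were taken as reads. The design assumed FPKM alone, and exact intervals (95%, SciPy 1.17.1) were added from these reads. Copies were sought with BLAST 2.17.0 (95% identity over 50% of the gene, among all loci), and classes with blastx (E at most 1e-05, to annotated element proteins) and nucleotide matches (80% over 50%). A locus was called detected at 3 reads. The centring and the 4-fold call were run on simulated reads with changes set only at loci of 10 FPKM or more. Changes at lower loci and the recovery of reads were not tested in this way.

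The loci named were set by rule. These are the 10 with the most FPKM on average, the expressed loci with the 8 highest and 8 lowest ratios, the highest of each window, 2 of each class and up to 5 with a miR845 match, 33 in all. Relatives, neighbours, paired loci, SADHU5-2, SADHU1-1, single markers, AT2G01029, AT4G04155 and AT2G05390 were chosen after their values were seen. The members and lists were chosen with earlier results of these data known. Alternatives covered pseudocount, filters, centring, scaling, thresholds, copies and overlaps. All columns of the tables belonged to the 2 libraries.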

Additional observations from a re-analysis of the deposited data

How the results depend on the processing

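More loci were 4-fold higher than lower in Ler-0, and the share of reads was higher there, under each alternative, while the sizes moved. The 46 higher and 13 lower loci became 117 and 33 with a pseudocount of 0.1, 10 and 3 with a pseudocount of 5, and 116 and 33 at 2-fold. Higher loci without a near-identical copy numbered 25. These, and the loci without copies below, still include AT1G46120 (24104 reads in Ler-0), of which 1689 bases align with AT5G26618. Among the 62 loci at 1 FPKM in both libraries, a filter added after the values were seen, 1 was higher and 0 lower, with a median of 0.59, since a locus near 0 in a library cannot enter. At a mean of 1 FPKM, also added, the median was 1.04. Higher loci made up 71.4% to 80% of 4-fold loci in every planned setting at 4-fold. The median of 0.89 was 1.57 and 0.28 with those pseudocounts, 2.04 at a filter of FPKM 5, 0.76 without copies and 0.066 over loci with 20 reads in either library. It reversed to -0.018 without a filter, where the pseudocount holds most loci near 0 and the centre of 0.06 is subtracted. The share of reads came to 0.512% (Ler-0) and 0.201% (Col-0) relative to protein-coding and TE loci alone, 0.255% and 0.117% over loci without copies, 0.297% and 0.111% without the 10 loci with the most reads in that library, and 0.308% and 0.131% without 1 common set of 10. The 10 loci with the most reads in a library held 40.7% (Ler-0) and 43.8% (Col-0) of the reads, and among loci without copies the 10 highest there held 33.6% and 39%. Loci with at least 10 reads in Col-0 numbered 964, and 411 or 80 loci were expressed at 0.5 or 5 FPKM. Of the 33 named loci, 2 passed 4-fold only with a pseudocount of 0.1, 10 no longer did with 5, and 0 reversed. Depth limits the ratios of loci with few reads, and 3 of the 263 expressed loci had 3 reads or fewer in Ler-0 and 33 in Col-0. No paired analysis was possible because there is a single library of Ler-0 and of Col-0.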
